A study of Mus musculus with 6 samples.

Results

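Somatostatin, cortistatin and the somatostatin receptors make up a small peptide signalling family, and its 7 genes were taken by name from the 49568 gene names in the data: the ligand genes Sst and Cort and the receptor genes Sstr1, Sstr2, Sstr3, Sstr4 and Sstr5. RNA was sequenced from neurons of the preBötzinger complex (preBötC), the brainstem site that generates inspiratory rhythm, in 6 samples of 15 neurons each, every sample from a different mouse at postnatal day 2. The mice of both groups carried the tamoxifen-inducible driver Dbx1CreERT2 and the reporter Rosa26tdTomato. The 3 Dbx1 samples held neurons with tdTomato fluorescence, which marks cells derived from progenitors that expressed Dbx1, a transcription factor of the embryonic brainstem, and the 3 non-Dbx1 samples held neuronal somata without it. Recombination depends on tamoxifen, so the label covers progenitors that expressed the driver while the drug was present, and absence of fluorescence is the only criterion for a non-Dbx1 neuron. Neurons were picked by hand from the slice, and both sexes were used without a record of sex per sample here.

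Somatostatin and cortistatin are secreted peptides, each cut from a larger precursor, that act on the same G protein-coupled receptors. The receptors couple to inhibitory G proteins, which lower cyclic AMP, open inward rectifier potassium channels and reduce calcium channel opening, so the peptides mostly quiet the neurons they reach. In the preBötC, somatostatin is widely used as a marker of a subset of excitatory neurons, and applied somatostatin slows or stops breathing rhythm.

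The kinship of the ligands can be read at the 3′ end of their coding sequences, shown here because the active peptide lies there. In the annotation of GRCm38, the assembly also called mm10, both genes lie on the minus strand, Sst (ENSMUSG00000004366) at chr16:23889573-23890958 and Cort (ENSMUSG00000028971) at chr4:149125034-149126763. The last 14 codons before the stop codon were read from chr16:23889732-23889773 and chr4:149125267-149125308. Capitals mark the 4 codons for phenylalanine, tryptophan, lysine and threonine, the core that somatostatin receptors recognize.
Sst: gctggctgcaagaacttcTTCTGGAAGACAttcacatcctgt
Cort: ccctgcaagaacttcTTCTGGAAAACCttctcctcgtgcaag
Aligned on that core, the stretches share 13 codons, of which 11 encode the same residue, and 31 of the 39 aligned bases are identical. Within the core 10 of 12 bases are identical. The whole coding sequences have 116 codons in Sst and 109 in Cort.

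Expression was measured in RPKM, which divides the reads on a gene by its exon length in kilobases and by the sample's reads on genes in units of 1000000. Because low RPKM values move in steps of a single read, the reads on genes could be recovered, from 6464675 to 9432958 per sample. Detection was set at 3 reads, which for 1 kilobase of exons equals 0.318 to 0.464 RPKM. These floors cover counting error only. The summed RPKM of 6 neuronal markers was 994 to 1708 across Dbx1 samples, against 993 to 1380 across non-Dbx1 samples, so every sample held neuronal RNA. These general markers do not show which progenitors the neurons came from. Transcripts that mark other cells were also present. Summed RPKM of 5 erythroid markers was 90.3 to 507 across Dbx1 samples, against 733 to 14058 across non-Dbx1 samples, and that of 5 catecholaminergic neuron markers was 2.19 to 12.4 and 19.3 to 693. The ranges were 34.7 to 59.6 and 52.4 to 81.2 for 6 astrocyte markers, 16.3 to 73.6 and 46.2 to 412 for 6 oligodendrocyte markers, 0.122 to 0.953 and 0.0287 to 68.4 for 4 endothelial markers, and 1.34 to 8.58 and 2.997 to 62.3 for 4 cholinergic or motor neuron markers. The 6 microglial markers summed to 0.202 to 2.97 and 0.530 to 1.52, with Tmem119 and Itgam at 0 in all samples. Their part in the results on the somatostatin genes was not tested.

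The ligand Sst was among the most abundant messages in 5 of the 6 samples and varied widely between them. Its RPKM was 1533, 2622 and 54.9 in Dbx1 samples 1, 2 and 3 and 585, 318 and 631 in non-Dbx1 samples 1, 2 and 3. Dbx1 samples 1 and 2 stood above all non-Dbx1 samples and Dbx1 sample 3 stood below all of them, so the groups overlapped although no single Dbx1 value lay inside the non-Dbx1 range. The Dbx1 samples with high Sst held 72.3% of its summed RPKM. Dbx1 sample 1 was 2.43 times the highest non-Dbx1 sample, and the lowest non-Dbx1 sample was 5.78 times Dbx1 sample 3. Ranked among all genes within a sample, Sst stood at place 4, 2 and 842 across Dbx1 samples, against 26, 78 and 22 across non-Dbx1 samples. The low value of Dbx1 sample 3 rested on 229 reads, against 1628 to 11824 in the other samples. With 15 neurons in a sample, fewer neurons that express Sst and less Sst RNA per neuron cannot be told apart. The neuronal marker sum of Dbx1 sample 3 (994) was close to that of non-Dbx1 sample 1 (993), where Sst was at 585 RPKM. The part of neuronal content in the low Sst value was not tested.

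Cort, whose peptide is best known from cortical interneurons, was close to the limit of detection. In the order of samples 1, 2 and 3, kept for all later values, its RPKM was 0.929, 0 and 0.212 across Dbx1 samples, against 0, 0 and 0.313 across non-Dbx1 samples. These values rest on 5, 0, 1, 0, 0 and 2 reads, and only that of Dbx1 sample 1 exceeded 3 reads, which correspond to 0.470 to 0.685 RPKM for this gene. Where Cort had reads, Sst was higher by a factor of 1651 in Dbx1 sample 1, 259 in Dbx1 sample 3 and 2015 in non-Dbx1 sample 3. Somatostatin was therefore the ligand message that was measured in quantity in both groups. Ghsr, the ghrelin receptor, which has also been reported to bind cortistatin, was at 1.96, 6.08 and 0 RPKM across Dbx1 samples, against 0 in all non-Dbx1 samples, and had reads in too few samples to be tested.

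**Figure D1:**
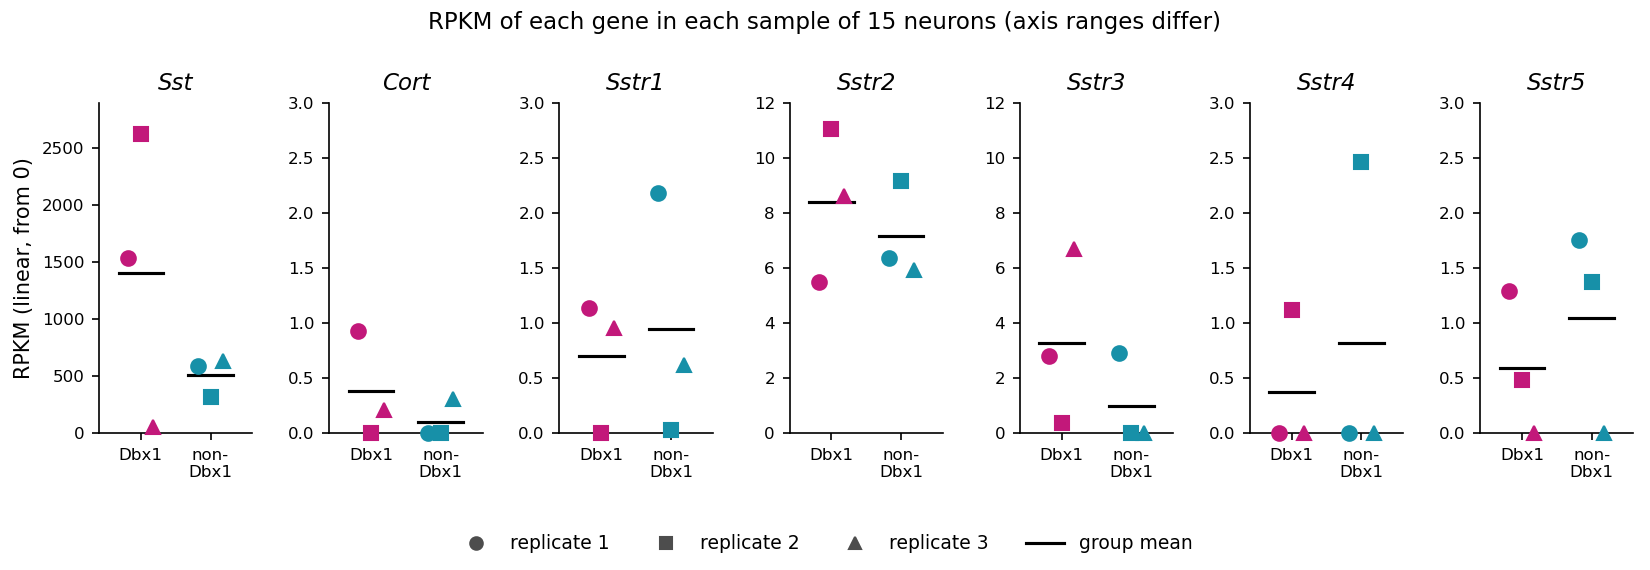
RPKM of the 2 ligand and 5 receptor genes in each of the 3 Dbx1 and 3 non-Dbx1 samples, 1 panel per gene, with a point for each sample. Sst ranged from 54.9 to 2622, Sstr2 stayed between 5.49 and 11.1, and Cort, Sstr1, Sstr3, Sstr4 and Sstr5 were at 0 in at least 1 sample.

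Among the receptors, Sstr2 (ENSMUSG00000047904, chr11:113619342-113626028, plus strand), the receptor most often tied to somatostatin's inhibition of neurons and of hormone release, was present in every sample at a steady level. Its RPKM was 5.49, 11.1 and 8.62 across Dbx1 samples, against 6.36, 9.16 and 5.93 across non-Dbx1 samples. The means were 8.39 ± 2.79 and 7.15 ± 1.75 (SD, n = 3), and both ends of the range, 5.49 and 11.1, were Dbx1 samples. These values rest on 194 to 393 reads per sample. The gene lies within an intron of Slc39a11, a zinc transporter gene on the opposite strand, with no shared exon bases. Reads were counted without regard to strand, so unspliced Slc39a11 RNA over Sstr2 exons could not be separated from Sstr2. RPKM of Slc39a11 was 16.1, 11.6 and 21.3 across Dbx1 samples, against 12.5, 13.6 and 16.1 across non-Dbx1 samples, and its part in the Sstr2 value was not tested.

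Sstr3 (ENSMUSG00000044933, chr15:78537008-78544685, minus strand), the receptor that sits in the primary cilium of neurons, came next and was present in some samples only. Its RPKM was 2.79, 0.372 and 6.70 across Dbx1 samples, against 2.91, 0 and 0 across non-Dbx1 samples. All Dbx1 samples thus had reads, from 11 to 183, while the single non-Dbx1 sample with Sstr3 had 74 reads and lay between the Dbx1 values. The zeros in non-Dbx1 samples 2 and 3 allow up to 0.0893 and 0.0810 RPKM, the level of 3 reads. Dbx1 sample 3, the sample lowest in Sst, was highest in Sstr3.

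Sstr1, Sstr4 and Sstr5 were at low levels, and each had no read in at least 1 sample. Sstr1 (ENSMUSG00000035431, chr12:58211772-58214444, plus strand), found in hypothalamus and retina, was at 1.14, 0 and 0.954 RPKM across Dbx1 samples, against 2.18, 0.0310 and 0.619 across non-Dbx1 samples. The value of 0.0310 is a single read, and the zero allows up to 0.106 RPKM. Sstr1 was thus measured beyond 3 reads in 4 samples, with the highest value in non-Dbx1 sample 1.

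Sstr5 (ENSMUSG00000050824, chr17:25489875-25497288, minus strand), best known from pituitary and pancreatic islets, was at 1.29, 0.486 and 0 RPKM across Dbx1 samples, against 1.75, 1.37 and 0 across non-Dbx1 samples. Replicate 3 of each group had no read, and the other samples had 10 to 32. Sstr4 (ENSMUSG00000037014, chr2:148395344-148396767, plus strand, 1 exon), best known from hippocampus and neocortex, had reads in 1 sample of each group. Its RPKM was 0, 1.12 and 0 across Dbx1 samples, against 0, 2.46 and 0 across non-Dbx1 samples, on 12 and 30 reads. The zeros allow 0.223 to 0.326 RPKM.

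Added over the 5 receptors, RPKM was 10.7, 13.0 and 16.3 across Dbx1 samples, against 13.2, 13.0 and 6.55 across non-Dbx1 samples. Sstr2 was the highest receptor in 6 of 6 samples. It held 51.3%, 84.8% and 53.0% of the receptor sum across Dbx1 samples, against 48.1%, 70.3% and 90.5% across non-Dbx1 samples. The remainder was made up differently from sample to sample, with Sstr3 next in Dbx1 samples 1 and 3 and non-Dbx1 sample 1, Sstr4 next in replicate 2 of each group, and Sstr1 next in non-Dbx1 sample 3. Sstr2 exceeded the next receptor by a factor of 1.29, in Dbx1 sample 3, to 9.88, in Dbx1 sample 2. Between 2 and 4 of the receptors had reads in a sample, and no sample had reads on all 5. The ratio of Sst to Sstr2 followed the ligand, at 279, 237 and 6.38 across Dbx1 samples, against 92.1, 34.7 and 106 across non-Dbx1 samples.

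**Figure D2:**
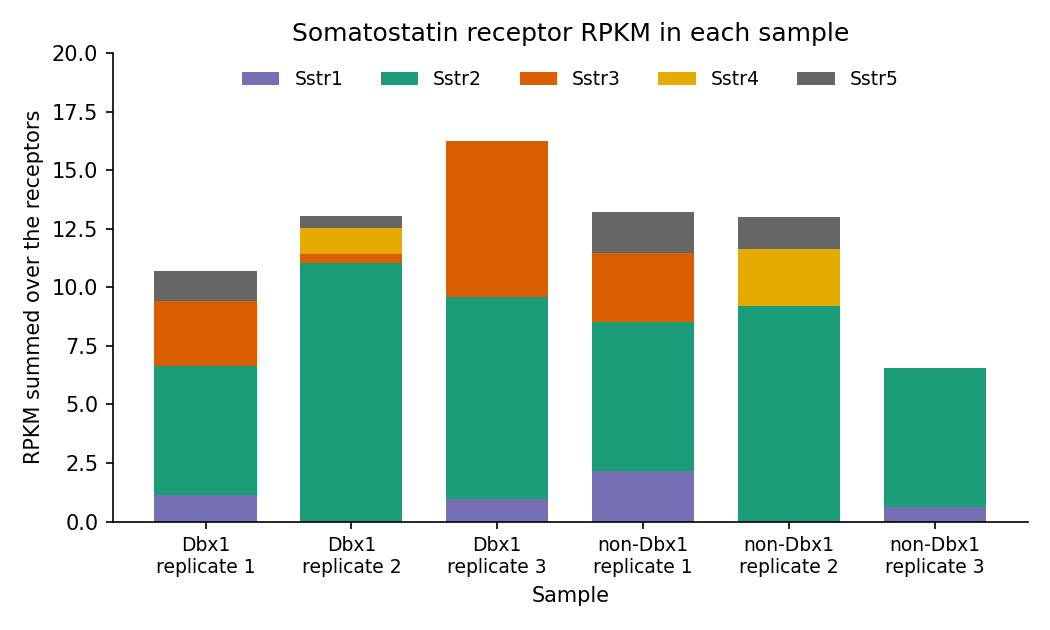
Receptor RPKM in each of the 6 samples, stacked over Sstr1 to Sstr5, so that the height of a bar is the receptor sum. Sstr2 is the largest segment in every bar, from 48.1% to 90.5% of the sum, and the segments beside it differ between samples.

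The order of mean RPKM over the 6 samples was Sst (957), Sstr2 (7.77), Sstr3 (2.13), Sstr1 (0.819), Sstr5 (0.816), Sstr4 (0.597) and Cort (0.242). Each of the 6 neighbouring pairs was compared within samples as the difference in log2(RPKM + 1), with an exact two-sided sign-change permutation test and Benjamini-Hochberg adjustment over the pairs. With 6 samples that exact test cannot go below p = 0.031. Sst exceeded Sstr2 by 5.998 ± 2.00 (SD) on the log2 scale and was higher in 6 of 6 samples (exact p = 0.031, adjusted p = 0.094). Sstr2 exceeded Sstr3 by 1.88 ± 1.35 and was also higher in 6 of 6 samples (exact p = 0.031, adjusted p = 0.094). Both pairs thus reached the smallest unadjusted p the design allows, and neither passed 0.05 after adjustment. With only these pairs at that floor, the adjustment could not give a value under 0.05. The pairs were also set by the order of mean RPKM in these same samples. Below Sstr2 no neighbours differed beyond their spread. Sstr3 exceeded Sstr1 by 0.47 ± 0.90 (exact p = 0.25, adjusted p = 0.50), Sstr5 exceeded Sstr4 by 0.27 ± 0.86 (exact p = 0.50, adjusted p = 0.75) and Sstr4 exceeded Cort by 0.21 ± 1.02 (exact p = 0.69, adjusted p = 0.825). Sstr1 and Sstr5 were each the higher of the pair in 3 samples (exact p = 1, adjusted p = 1).

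The distance of Sstr2 from the other receptors depended on exon length. The RPKM steps correspond to an Sstr2 exon length of 4721 bases, against 2143 bases of merged exons in GENCODE vM21. With the latter, Sstr2 was at 12.1, 24.4 and 18.98 across Dbx1 samples, against 14.003, 20.2 and 13.1 across non-Dbx1 samples, and the ratio of its mean to that of Sstr3 went from 3.65 to 8.84. Its share of the receptor sum was then 62.5% to 92.6%. The lengths also differed for Sst (599 bases from the steps, 721 in GENCODE), Sstr1 (3766 and 2046) and Sstr3 (3928 and 4320). With GENCODE lengths the ratio of Sst to Sstr2 was lower, at 105, 89.4 and 2.41 across Dbx1 samples, against 34.7, 13.1 and 40.1 across non-Dbx1 samples. For these 4 genes the stated reads are the fewest that the RPKM values allow, so the true reads could be a multiple of them.

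Whether these genes differ between Dbx1 and non-Dbx1 neurons was asked by fitting limma to log2(RPKM + 1) for 17614 genes, those above 0 RPKM in 3 samples or more. L2FC is the Dbx1 mean minus the non-Dbx1 mean on that scale, which understates the change of low genes, and FDR is the Benjamini-Hochberg adjusted p over all genes tested, with a threshold of 0.1. Of the 7 genes 6 passed the filter and 0 of 6 had an FDR under 0.1, where 0.00568% of all genes tested did (D930028M14Rik, chosen for naming after its value was seen). At an unadjusted limma p under 0.05 the count was 0 of 6, against 5.20% of all genes tested, and limma-voom on recovered reads also gave 0 at either limit among the 5 it could take. None of the 7 genes had groups that did not overlap, while 10.6% of the genes tested had (5.35% with the Dbx1 samples higher and 5.24% with the non-Dbx1 samples higher). No difference between the groups in a ligand or receptor gene was thus larger than the spread between samples by these tests.

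The intervals show how much difference could have gone unseen. L2FC of Sst was 0.31 (standard error 1.24), with a 95% interval of -2.51 to 3.13 (limma FDR 0.988). Its group means, 1403 ± 1288 and 511 ± 169 RPKM (SD, n = 3), differed on the linear scale in the same direction, but the difference rested on Dbx1 samples 1 and 2. The exact permutation test was run on log2(RPKM + 1) (p = 1), and the linear difference was not tested. Without Dbx1 sample 3, L2FC was 2.03 with a limma FDR of 0.573, and without Dbx1 sample 2 it was -0.74, so single libraries set both the size and the direction. L2FC of Sstr2 was 0.18 with a 95% interval of -0.74 to 1.10 (limma FDR 0.979), the narrowest interval among the receptors tested.

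L2FC of Sstr3 was 1.12 (standard error 0.81), with a 95% interval of -0.74 to 2.97 (limma FDR 0.940, exact permutation p = 0.30). Its group means were 3.28 ± 3.19 and 0.971 ± 1.68 RPKM, and its unadjusted limma p of 0.204 was the lowest of the family. Leaving out single samples moved it between 0.53 and 1.78, the lowest without Dbx1 sample 3 and the highest without Dbx1 sample 2. It was 2.75 with a pseudocount of 0.1 and 4.64 with limma-voom (FDR 0.876). L2FC was -0.12 for Sstr1 (interval -1.28 to 1.05), -0.31 for Sstr5 (interval -1.46 to 0.84) and 0.28 for Cort (interval -0.36 to 0.91), with limma FDR of 0.990, 0.968 and 0.952. Sstr4 failed the filter, and in a fit without it L2FC was -0.24 with an interval of -1.64 to 1.17 (limma FDR 0.913). Sstr1 and Sstr2 changed sign when Dbx1 sample 2 was left out, to 0.23 and -0.02, and Sstr1 also without non-Dbx1 sample 1, to 0.32.

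**Figure D3:**
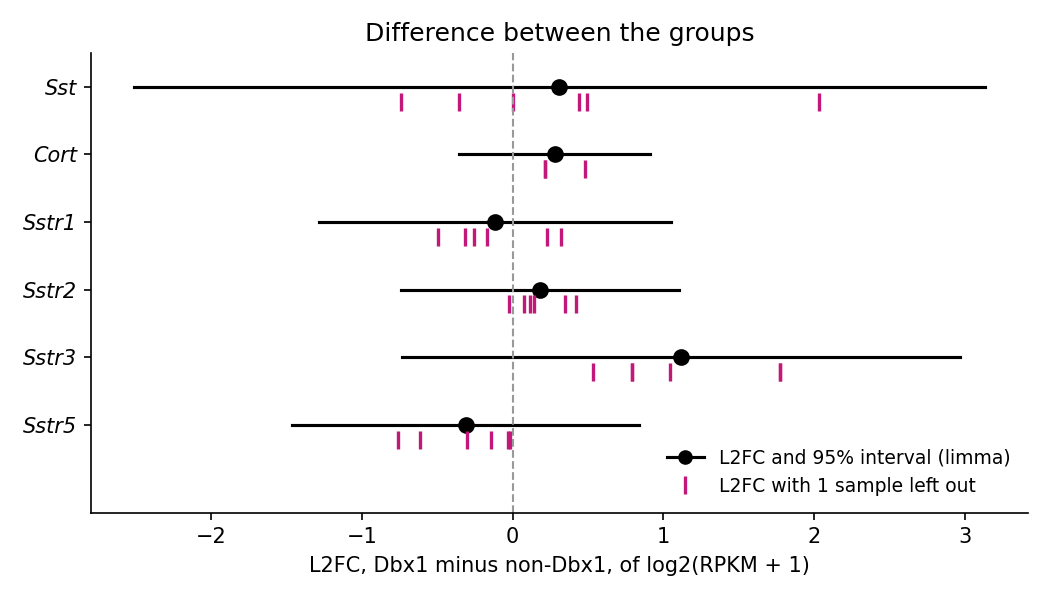
L2FC of the 6 genes tested, Dbx1 minus non-Dbx1 on the log2(RPKM + 1) scale, as points with 95% limma intervals, and small ticks for fits with 1 sample left out. Every interval includes 0, and that of Sst, from -2.51 to 3.13, is the widest.

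Sst and its most abundant receptor differed in their spread over the samples. The SD of log2(RPKM + 1) over the 6 samples was 1.94 for Sst, with 3.01 within the Dbx1 samples and 0.54 within the non-Dbx1 samples. Of the 500 genes nearest to it in rank of mean RPKM, 495 (99%) had a smaller SD. Few genes are as abundant as Sst, so these ran from 90.4 to 6487 RPKM and are not closely matched in level. Among the 450 genes with a mean of at least 100 RPKM, 5 had a larger SD than Sst, and these, named after their values were seen, were Npy and Cartpt, both neuropeptide genes, the haemoglobin genes Hbb-bs and Hbb-bt, and Gm1821. The highest Sst value was 47.7 times the lowest. Dbx1 sample 3 set much of this spread, and without it the SD was 1.21 and the highest value was 8.25 times the lowest.

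Sstr2 lay on the other side, with an SD of 0.36. Of the 500 genes nearest to it in rank of mean RPKM, at 7.28 to 8.30 RPKM, 64 (12.8%) had a smaller one. The median SD of those genes was 0.64, and the highest Sstr2 value was 2.01 times the lowest. Sstr3, with an SD of 1.23, exceeded 426 of the 500 genes of like level (85.2%), whereas Sstr1 and Sstr5 exceeded 220 and 224, near the middle. These positions describe 6 samples and carry no test, and a difference in spread between the groups was not tested.

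**Figure D4:**
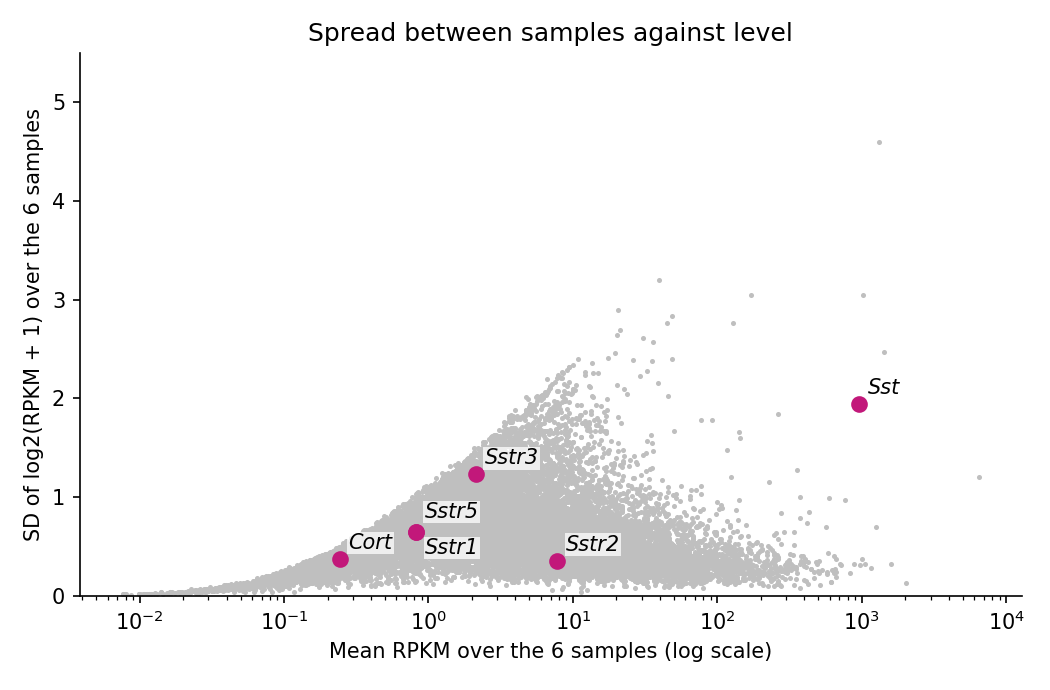
SD of log2(RPKM + 1) over the 6 samples against mean RPKM on a log axis for the genes tested, with the somatostatin family genes marked. Sst (SD 1.94) lies above nearly all of the 500 genes nearest to it in rank of mean RPKM, which span 90.4 to 6487 RPKM. Sstr2 (SD 0.36) lies below most of the genes nearest to it in rank.

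Sst is a textbook example of a gene switched on by cyclic AMP. Its promoter and that of Sstr2 both hold the palindrome TGACGTCA, the cyclic AMP response element that is bound by CREB. The windows are printed because the element is common to the ligand and the receptor that were measured in every sample. They come from RefSeq promoters on GRCm38.p6, at chr16:23890874-23890903 on the minus strand, where the element begins 48 bases before the RefSeq start at position 23890844, and at chr11:113619258-113619287 on the plus strand, where it begins 58 bases before the RefSeq start at position 113619327. These starts differ from those of the GENCODE gene spans given above. The GENCODE start of Sst lies 114 bases further upstream, at 23890958, so there the element lies inside the annotated gene, and that of Sstr2 lies 15 bases further downstream. Capitals mark the element.
Sst: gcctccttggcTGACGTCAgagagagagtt
Sstr2: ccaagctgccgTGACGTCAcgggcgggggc
The same 8 letters, which read alike on both strands, occur in 588 of 32851 promoter windows of 300 bases (1.79%). The windows of Cort, Sstr3 and Sstr4 did not hold them. A match describes the sequence and says nothing of binding in these neurons.

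The genes around the peptide and its receptors were read from lists with known roles, and no list held a gene with limma FDR under 0.1. In all, 69 genes of 8 lists were in the data and 66 were tested, of which 7 had an unadjusted limma p under 0.05 (10.6%, against 5.20% of all genes tested) and 8 had groups that did not overlap (12.1%, against 10.6% of all genes tested). The median L2FC of all genes tested was 0.0089, with 50.8% above 0.

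Precursor processing genes cut and trim the peptide precursor, and 12 of them were tested, 6 with L2FC above 0 and 6 below, with a median of -0.10. Cpe, the carboxypeptidase that trims peptide ends, was at 321 to 377 RPKM across Dbx1 samples, against 229.9 to 417 across non-Dbx1 samples. Scg5, a chaperone of the convertase PCSK2, was at 397, 467 and 389 RPKM across Dbx1 samples, against 179, 248 and 352 across non-Dbx1 samples, without overlap (L2FC 0.73, limma FDR 0.912). Furin, a convertase of the secretory pathway, was at 0.0156, 0.206 and 0.428 across Dbx1 samples, against 0.978, 0.927 and 1.42 across non-Dbx1 samples (L2FC -0.80, limma FDR 0.912). Cpe and Scg5 were thus abundant in both groups and Furin was low. Groups did not overlap for 4 of the 12 genes (33.3%, against 10.6% of all genes tested), and all 4 missed the FDR threshold. Scg5 had the Dbx1 samples higher, and Furin, Pcsk1 and Nrd1 had the non-Dbx1 samples higher. Pcsk2, the convertase with the highest mean, had overlapping groups, at 12.1 to 20.5 RPKM across Dbx1 samples, against 2.69 to 14.8 across non-Dbx1 samples (L2FC 1.13, limma FDR 0.912). Pcsk1, a prohormone convertase, ranged from 0 to 0.616 RPKM across Dbx1 samples, against 0.642 to 6.68 across non-Dbx1 samples, and Nrd1, a protease that cuts at basic residues, from 5.75 to 7.13 and from 9.56 to 19.5.

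The genes through which the receptors act were present as well. Of 13 genes for inhibitory G protein alpha subunits and for beta and gamma subunits, 8 had L2FC above 0 and 5 below, with a median of 0.14. Gng3, a neuronal gamma subunit gene, was highest, at 228 to 302 RPKM across Dbx1 samples, against 322 to 357 across non-Dbx1 samples (limma FDR 0.936), followed by Gng4 at 79.0 to 112 and 95.1 to 171 (limma FDR 0.936). Channel genes were lower. Cacna1b and Cacna1a, for the N-type and P/Q-type calcium channels, had RPKM of 4.38 to 19.4 and 4.07 to 16.2 across Dbx1 samples, against 4.28 to 11.6 and 6.36 to 8.64 across non-Dbx1 samples. Of the 8 channel genes 7 were tested, 4 with L2FC above 0 and 3 below, with a median of 0.09, the lowest limma p being that of Kcnq3, an M-current channel gene (1.16 to 4.64 and 4.40 to 6.22 RPKM, FDR 0.936). Kcnj5, an inward rectifier gene, had no read in any sample.

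Receptor desensitization genes, the kinases and arrestins that silence an activated receptor, numbered 6, 2 with L2FC above 0 and 4 below, with a median of -0.07. Grk3 was at 1.84, 4.55 and 3.84 RPKM across Dbx1 samples, against 11.7, 13.5 and 6.87 across non-Dbx1 samples. The groups did not overlap, and L2FC was -1.42 with a standard error of 0.47 (limma FDR 0.870). The kinase genes with the highest means, Grk6 and Grk2, had overlapping groups, at 19.7 to 36.0 and 8.78 to 41.9 RPKM for Grk6 and 7.37 to 12.7 and 7.34 to 12.6 for Grk2.

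The CREB family and its coactivators numbered 8, all with overlapping groups, 3 with L2FC above 0 and 5 below, with a median of -0.20. Crebbp and Crtc1, both coactivators, were the highest, at 5.04 to 9.58 and 4.92 to 11.1 RPKM for Crebbp and 3.38 to 5.71 and 1.93 to 10.8 for Crtc1. Crem, a repressor and activator of the same elements, had the lowest limma p of the list and an FDR of 0.960.

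Genes that often mark Sst neurons elsewhere in the brain showed no common direction between the groups, and their patterns were not tested against that of Sst. Of 13 tested, 6 had L2FC above 0 and 7 below, with a median of -0.0043. Crhbp, the corticotropin-releasing hormone binding protein found in many cortical Sst interneurons, was at 14.5, 5.83 and 0.767 RPKM across Dbx1 samples, against 126.7, 21.1 and 121 across non-Dbx1 samples. The groups did not overlap, and its L2FC of -3.61 (standard error 0.89) had a limma FDR of 0.724. Penk, the enkephalin precursor, was at 172, 971.5 and 279 RPKM across Dbx1 samples, against 446, 156 and 201.3 across non-Dbx1 samples, so that Dbx1 sample 2 was highest in both Penk and Sst. Npy, neuropeptide Y, was at 7800 RPKM in non-Dbx1 sample 2 and at 0 to 33.3 in the other samples. In that same sample the catecholaminergic marker sum was highest, at 693, and Sst was the lowest of its group.

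Among 7 genes used beside Sst to describe preBötC neurons, 3 had L2FC above 0 and 4 below, with a median of -0.29. Slc17a6, the vesicular glutamate transporter of brainstem excitatory neurons, was at 47.2, 128 and 54.9 RPKM across Dbx1 samples, against 31.85, 35.1 and 13.6 across non-Dbx1 samples, without overlap (L2FC 1.44, standard error 0.47, limma FDR 0.870). Gad2, which makes the inhibitory transmitter GABA, was at 50.9, 23.3 and 55.6 and at 50.9, 57.6 and 60.0. Dbx1 sample 2 was thus highest in Sst and in Slc17a6 and lowest in Gad2. Dbx1 sample 3, lowest in Sst, showed no common direction over the list. It had the second highest Slc17a6 and the highest Slc6a5, a glycine transporter gene, at 64.2 RPKM against 13.1 to 53.6 in the other samples. Its Gad2 of 55.6 RPKM lay within the range of the other samples. Slc32a1, the vesicular transporter for GABA and glycine, was at 9.56 RPKM there, against 6.69 to 22.4 in the other samples.

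The genes whose pattern over the 6 samples came closest to Sst, out of 3751 with a mean of at least 10 RPKM, were Acta1 (Pearson r = 0.982) and Eif6 (0.978), on the log2(RPKM + 1) scale. Acta1, skeletal actin, ran from 2.34 RPKM in Dbx1 sample 3 to 23.2 in Dbx1 sample 2. Closest to Sstr2 were Tmem9 (0.981), Cryzl1 (0.980) and Ptprd (0.963), with Tmem9 at 33.7 to 58.5 RPKM. The points of each correlation are the same 6 libraries and share their depth and composition, and with 3751 genes searched the highest values describe likeness only.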

How the data were processed

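RNA from 6 samples of 15 preBötC neurons was sequenced after SMART-Seq v4 amplification. The authors aligned reads to mm10 with TopHat2, counted uniquely mapped reads by gene name with HTSeq without strand, and deposited RPKM computed with Ensembl exon lengths, whose release is not given in the sources used here. No scaling between samples was applied. Reads on genes per sample were recovered from RPKM steps, with whole reads within 1e-06 at the annotated exon length for 9675 of 27067 genes above 0. For the other 17392 the smallest length that gives whole reads was taken, so those are whole by construction and the true reads could be a multiple. Amplified reads are not independent molecules.

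The 7 genes, the pathway lists and the tests were chosen with earlier results of these data known. Within lists the genes named are those with the highest 2 means, the lowest limma p or an FDR under 0.1. Others are named as chosen after seeing values or for a stated comparison (Slc6a5, Slc32a1, Kcnj5, Pcsk1, Pcsk2, Nrd1). Pearson r named the 3 genes closest to Sst and to Sstr2, of which 1 is not reported here. log2(RPKM + 1) was tested with limma 3.58.1 (lmFit, eBayes with trend) in R 4.3.3, two-sided, for 17614 genes above 0 RPKM in 3 samples or more. The exact permutation test of 3 against 3 cannot go below p = 0.10. On simulated data limma recovered 21 of 100 genes changed by 2 and 81 of 100 changed by 4 on the log2 scale, among 17491 genes. It also called 10 unchanged genes. Recovery at the low reads of Cort, Sstr1, Sstr3, Sstr4 and Sstr5, or at the spread of Sst, was not tested separately. Positions came from GENCODE vM21 (GRCm38), which matched 47214 of 49568 names (95.3%), and promoters from RefSeq (GRCm38.p6), where 5 of the 7 genes were found. Python 3.11.15, numpy 2.4.6, pandas 2.3.3, scipy 1.17.1 and matplotlib 3.10.9 were used. Alternatives were another pseudocount, filters, scalings, no trend, a replicate block, limma-voom, each sample left out and, added after seeing the data, GENCODE exon lengths.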

Additional observations from a re-analysis of the deposited data

How the results depend on the processing

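The number of genes with limma FDR under 0.1 was 1, and it was 0 with a pseudocount of 0.1, without a filter, with the replicate number as a block and with limma-voom, 3 without the trend, and 0 to 1 with each sample left out. For the 6 family genes fitted, 51 of 51 values under the other settings kept the sign of L2FC, and the 45 that had a test had an FDR above 0.1. The filters, the fit without trend and the replicate block leave L2FC itself unchanged, so for these settings the sign could not differ. Leaving out a sample gave -0.74 to 2.03 for Sst, -0.49 to 0.32 for Sstr1 and -0.0239 to 0.42 for Sstr2, and changed no sign of Sstr3, Sstr5 or, in the 3 fits it passed, Cort. In the order of levels, Sstr1 against Sstr5 turned positive with a pseudocount of 0.1 (0.0558), GENCODE lengths (0.35), the Dbx1 samples alone (0.10) and medians (0.0530), and ran from -0.19 to 0.24 with a sample left out. Sstr4 against Cort turned negative in the Dbx1 samples alone (-0.0473) and with medians (-0.14), and ran from -0.11 to 0.44 with a sample left out, and Sstr3 against Sstr1 was -0.15 in the non-Dbx1 samples alone. The cause was not tested. Deviations of same-numbered samples correlated at -0.11, 0.02 and -0.05. These values showed no pairing of the samples by number but cannot exclude it, and the block changed no call of the family. Cort, Sstr1, Sstr3, Sstr4 and Sstr5 each had samples at 5 reads or fewer, and the part of depth in this was not tested.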
